A study of Mus musculus with 16 samples.

Results

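The mitochondrial genome encodes a small set of subunits of the respiratory chain, and the messenger RNAs (mRNAs) of these subunits were measured in mouse rotator cuff muscle with and without surgery. The genes were chosen by name from a list of 10: mt-Nd1, mt-Nd2, mt-Nd3, mt-Nd4 and mt-Nd5 of complex I, mt-Cytb of complex III, mt-Co1, mt-Co2 and mt-Co3 of complex IV, and mt-Atp6 of complex V. Of these, 6 were analysed (mt-Nd1, mt-Nd2, mt-Nd4, mt-Nd5, mt-Cytb and mt-Co1), out of 11710 genes in the count table. The others, mt-Nd3, mt-Co2, mt-Co3 and mt-Atp6, were not analysed here, so complex V has no mitochondrially encoded gene below and complexes III and IV have 1 each. RNA sequencing covered 16 samples in 4 groups of 4. The groups were C57BL/6J mice (BL6 below) without an operation, BL6 mice after tenectomy (removal of tendon) and denervation (loss of the motor nerve supply) of the muscle, and MRL/MpJ mice (MRL below) in the same 2 states. BL6 is the standard laboratory strain, and MRL is an inbred strain studied because some of its wounds close unusually well. The muscle is the infraspinatus in the series text and the supraspinatus in the sample labels, so the tissue is called rotator cuff muscle. The labels used here give no age, sex or time after surgery, no sham operation, and do not say whether a sample is 1 animal or a pool, so p-values measure the spread between samples, which may in part be technical.

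The respiratory chain is a series of protein complexes in the inner mitochondrial membrane. Complex I takes electrons from NADH, complex II from succinate, complex III passes them to cytochrome c, complex IV hands them to oxygen, and complex V uses the resulting proton gradient to make ATP. Most subunits are encoded in the nucleus and imported. The mitochondrial genome supplies the hydrophobic core subunits, which are transcribed as long precursors from either strand of a circular DNA and cut into single RNAs, together with its own ribosomal RNAs (rRNAs) and transfer RNAs (tRNAs). Skeletal muscle is rich in mitochondria, and these mRNAs are among its most abundant transcripts.

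On the GRCm38 build (GENCODE M21 annotation), each of the 6 is a protein-coding gene of a single exon on the plus strand of chromosome M. mt-Nd1 (ENSMUSG00000064341) lies at chrM:2751-3707 and mt-Nd2 (ENSMUSG00000064345) at chrM:3914-4951. mt-Co1 (ENSMUSG00000064351) follows at chrM:5328-6872, mt-Nd4 (ENSMUSG00000064363) at chrM:10167-11544, mt-Nd5 (ENSMUSG00000064367) at chrM:11742-13565 and mt-Cytb (ENSMUSG00000064370) at chrM:14145-15288. The nuclear genome holds copies of parts of this DNA, annotated as pseudogenes, and reads from a stretch that is the same in both places cannot be told apart. Whether the authors counted reads that map to several places is not given in the sources used here. The transcripts were therefore compared with all annotated transcripts, and a copy was taken as near-identical at 99% identity or more over at least 100 bases. A block on chromosome 1 carries such copies. Gm28439 matched mt-Nd4 at 100% over 876 of its 1378 bases, and Gm29216 matched mt-Co1 at 99.8% over 483 of its 1545 bases. For mt-Nd1, mt-Nd2, mt-Nd5 and mt-Cytb no copy reached that limit. Their closest copies had 83.6% (Gm48258), 96.7% (Gm13339), 95.2% (Gm4076) and 92.9% (Gm11410) identity. The levels of mt-Nd4 and mt-Co1 are uncertain to that extent. For comparison, the copies cover nearly the whole of the 4 genes that were not analysed, with Gm28661 matching mt-Co2 at 100% over 681 of 684 bases, Gm28437 matching mt-Co3 at 100% over 783 of 784, Gm10925 matching mt-Atp6 at 100% over 678 of 681 and Gm28438 matching mt-Nd3 at 99.7% over 345 of 348.

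A stretch of 60 bases of mt-Co1 is shown with its 2 closest nuclear copies because it shows how few bases separate them. In the copies, capitals mark the base that differs from mt-Co1, and in mt-Co1 they mark the same positions. The differences are A1066T in Gm29216 and T1072C in Gm13340, counted from base 1 of mt-Co1 with its own base first.
mt-Co1, chrM:6390-6449, plus strand: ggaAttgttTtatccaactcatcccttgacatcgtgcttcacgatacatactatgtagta
Gm29216, chr1:24616129-24616188, minus strand: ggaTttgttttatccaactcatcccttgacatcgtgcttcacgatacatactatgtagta
Gm13340, chr2:22588526-22588585, minus strand: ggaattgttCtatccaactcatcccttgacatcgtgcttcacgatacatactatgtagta

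The next stretch shows where the identity of mt-Nd4 with Gm28439 ends. The capitals are the last 30 bases that the gene and its copy share, and the lower-case bases after them are no longer part of the match.
mt-Nd4, chrM:11013-11072, plus strand: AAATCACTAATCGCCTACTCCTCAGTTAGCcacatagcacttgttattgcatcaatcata

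The mitochondrial genes also run into each other. The end of mt-Nd5 is shown with the end of mt-Nd6, a complex I subunit read from the other strand, because 14 bases (capitals, each written 5′ to 3′ on its own strand) belong to both. The strand setting of the counting is not given in the sources used here.
mt-Nd5, chrM:13506-13565, plus strand: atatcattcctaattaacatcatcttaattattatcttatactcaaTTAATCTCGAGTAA
mt-Nd6, chrM:13552-13611, minus strand: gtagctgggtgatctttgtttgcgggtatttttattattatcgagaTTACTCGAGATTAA

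Total counts ran from 24323862 to 43552964 per sample, and all 11 markers on the list for skeletal muscle fibres were found. Their summed level was 102567 to 156443 CPM in unoperated samples and 53528 to 122812 CPM in operated samples. CPM (counts per 1000000) relates a gene's count to the size of its library, here with library sizes scaled by the trimmed mean of M values (TMM), which sets the bulk of genes to no change. In the other direction, the adipocyte list (5 of 6 markers found) summed to 212 to 375 CPM in unoperated and 1100 to 1918 CPM in operated samples. Of 4 cardiac markers 1 was found, Myh6, at 50.1 CPM in MRL operated sample 4 and at no more than 6.53 CPM in the other samples. In bulk muscle, fewer cells of a type and less RNA per cell cannot be told apart.

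Together the 6 mRNAs took a larger share of all counts after surgery in both strains. In unoperated BL6 samples 1 to 4 the share was 13.7%, 12.8%, 11.9% and 12.7%, and in operated BL6 samples 1 to 4 it was 22.7%, 19.7%, 20.7% and 16.5%. In MRL it was 10.7%, 11.3%, 10.7% and 11.2% without and 23.8%, 19.0%, 20.7% and 11.4% with surgery. The operated values lay above the unoperated values in each strain, but in MRL the margin of sample 4 was narrow. The 4 mRNAs without a near-identical nuclear copy took 8.45% and 12.6% on average in unoperated and operated BL6, and 6.91% and 11.7% in MRL. For these 4 the BL6 groups did not overlap (7.88% to 9.21% without and 10.2% to 14.5% with surgery), but in MRL operated sample 4, at 6.85%, lay inside the unoperated range of 6.75% to 7.06%, and the other operated samples held 12.2% to 14.8%. A larger share for these mRNAs leaves a smaller share for all other genes. Against counts without the mitochondrially encoded genes, the 6 summed to 147486 ± 9874 CPM (SD, n = 4) in unoperated and 252185 ± 41008 in operated BL6. On the same scale MRL had 123621 ± 4221 without and 236894 ± 79038 with surgery.

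**Figure D1:**
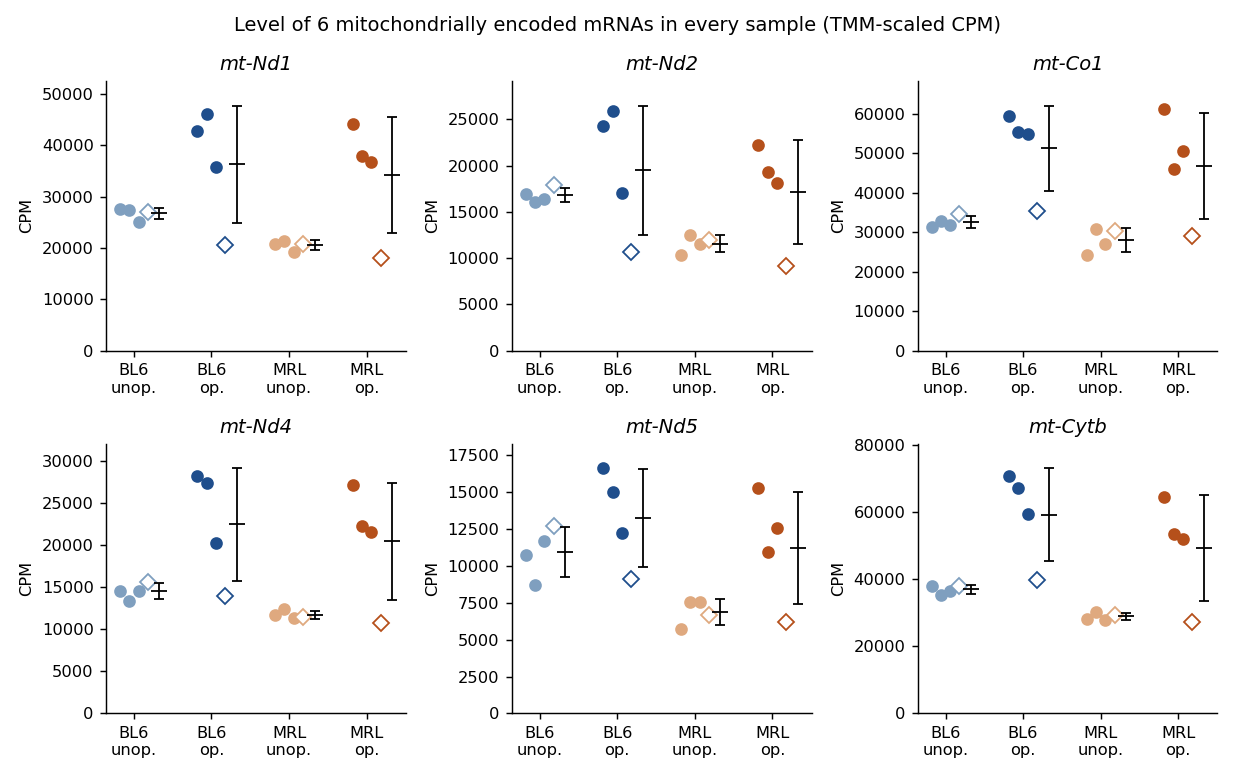
Level of each of the 6 mRNAs in every sample, in CPM with TMM-scaled libraries, by group (unop., unoperated; op., operated). Points are samples, open diamonds are samples numbered 4, and the bar to the right of each group is the mean with its SD (n = 4). The operated samples numbered 4 are the lowest of their group in all 6 panels, and the 4 unoperated MRL samples lie below the 4 unoperated BL6 samples in all 6.

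After surgery in BL6, mt-Cytb, mt-Co1 and mt-Nd4 rose by the test, and mt-Nd1, mt-Nd5 and mt-Nd2 did not pass it. In MRL, mt-Nd4, mt-Cytb, mt-Co1, mt-Nd1 and mt-Nd5 rose and mt-Nd2 did not pass. The test was edgeR's quasi-likelihood test over all 16 samples with Benjamini-Hochberg adjustment over 11709 genes. Genes with an adjusted p below 0.05 count as called. That is 3 of 6 called in BL6 and 5 of 6 in MRL, each higher after surgery, with a median log2 fold change over the 6 of 0.54 and 0.73. Of all genes tested, 67.9% were called in BL6 (35.1% as higher) and 45% in MRL (22.3% as higher), and the median over all genes was 0.04 and 0.01. In a response this broad, a called gene is not unusual.

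mt-Nd1 encodes a core subunit of the membrane arm of complex I, next to the site where ubiquinone binds. Its unoperated BL6 samples 1 to 4 held 27506, 27301, 25127 and 26926 CPM, and the operated ones 42811, 46158, 35777 and 20498 CPM. In MRL the unoperated samples held 20826, 21367, 19226 and 20829 CPM and the operated ones 44199, 37841, 36688 and 18021 CPM. On the TMM scale, in both strains operated samples 1 to 3 lay above and sample 4 below every unoperated sample. The place of sample 4 depended on the scale. Under total counts as library size it held 26066 CPM in BL6, inside the unoperated range of 22056 to 27187 CPM. In MRL it then held 20417 CPM, inside the unoperated range of 19667 to 22068 CPM. The log2 fold change was 0.44 ± 0.26 (SE) in BL6 (adjusted p = 0.144) and 0.73 ± 0.26 in MRL (adjusted p = 0.0339), by edgeR's test.

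mt-Nd2, a further membrane subunit of complex I, had the smallest response of the 6 in either strain. It held 16934, 16074, 16365 and 17865 CPM in unoperated and 24306, 25869, 17079.8 and 10663 CPM in operated BL6. The MRL samples held 10360.2, 12492, 11491 and 11963 CPM without and 22183, 19311, 18084 and 9156 CPM with surgery. The BL6 groups overlapped through operated samples 3 and 4, and the MRL groups through sample 4. The change did not pass edgeR's test in BL6 (log2 fold change 0.21 ± 0.27, adjusted p = 0.498) or in MRL (0.57 ± 0.27, adjusted p = 0.0963).

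mt-Nd4 encodes one of the antiporter-like proton-pumping subunits of complex I. Unoperated BL6 samples held 14625, 13383, 14574 and 15649 CPM and operated ones 28266, 27385, 20287 and 14011 CPM. In MRL the levels were 11744, 12406, 11333 and 11509.6 CPM without and 27168, 22359, 21578 and 10741 CPM with surgery. On the TMM scale operated sample 4 fell inside the unoperated range in BL6 and below it in MRL, while the other operated samples were above it. Under total counts as library size, sample 4 was above that range in BL6 and inside it in MRL. By edgeR's test mt-Nd4 rose by 0.63 ± 0.25 on the log2 scale in BL6 (adjusted p = 0.0391) and by 0.80 ± 0.26 in MRL (adjusted p = 0.020).

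mt-Nd5, the subunit at the far end of the membrane arm, was the least abundant of the 6. Its unoperated BL6 samples held 10731, 8710.3, 11678 and 12711 CPM, a wider relative spread than the other 5 showed in that group, and the operated ones 16612, 15009.6, 12215 and 9098 CPM. In MRL it held 5699, 7537, 7525 and 6694 CPM without and 15249, 10919, 12557 and 6182 CPM with surgery. The BL6 groups interleaved, whereas in MRL operated samples 1 to 3 were above every unoperated one. The log2 fold change was 0.27 ± 0.25 in BL6 (adjusted p = 0.343) and 0.71 ± 0.25 in MRL (adjusted p = 0.0317) by edgeR's test.

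mt-Cytb encodes cytochrome b, the catalytic subunit of complex III that carries its quinone sites. It was the most abundant of the 6, with 38057, 35211, 36569 and 37918 CPM in unoperated and 70791, 67036, 59264 and 39768 CPM in operated BL6. In MRL it held 28031, 30262, 27792 and 29419 CPM without and 64511, 53484, 52107 and 27134 CPM with surgery. The BL6 groups did not overlap, although operated sample 4 was just above the highest unoperated sample, and the MRL groups overlapped through operated sample 4. By edgeR's test the rise was 0.68 ± 0.24 on the log2 scale in BL6 (adjusted p = 0.0185) and 0.77 ± 0.24 in MRL (adjusted p = 0.0165).

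mt-Co1 encodes the subunit of complex IV (cytochrome c oxidase) in which oxygen is reduced. It held 31221, 32811, 31813 and 34706 CPM in unoperated and 59530.1, 55380.3, 54815 and 35350.0 CPM in operated BL6. The MRL samples held 24139.6, 30789, 27109.8 and 30325 CPM without and 61275, 46142, 50467 and 29055 CPM with surgery. As for mt-Cytb, the BL6 groups stood apart by a small margin, and in MRL sample 4 lay within the unoperated range. The rise by edgeR's test was 0.65 ± 0.22 on the log2 scale in BL6 (adjusted p = 0.0163) and 0.73 ± 0.22 in MRL (adjusted p = 0.0151). On the TMM scale, the operated samples lay wholly above the unoperated ones for 2 of the 6 mRNAs in BL6 and for 0 in MRL. Of all genes tested, 27.5% and 17% did so. Which of the 6 overlapped depended on the scale. With total counts as library size, mt-Nd4 and mt-Nd5 also stood apart in BL6, and mt-Co1 and mt-Cytb stood apart in MRL. BL6 operated sample 4, for example, then held 17817 CPM of mt-Nd4, against 12793 to 14456 CPM in unoperated BL6. The share of all genes on that scale is not given here.

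In each strain the operated sample numbered 4 was the lowest of its group for all 6 mRNAs, on the TMM scale and with total counts as library size. How far it lay below the others depended on the scale: with total counts, BL6 operated sample 4 held 44953 CPM of mt-Co1 beside 45977 CPM in sample 2, and 11569 CPM of mt-Nd5 beside 12461 CPM in sample 2. In BL6 that sample had the highest summed level of its group for the fibroblast list (5157 CPM against 748 to 1429 CPM) and the macrophage list (304 CPM against 43.4 to 83.3 CPM). It was also highest for the adipocyte list (1676 CPM against 1218 to 1504 CPM) and lowest for the fibre list (53528 CPM against 76507 to 122812 CPM). In MRL the sample was within the others' range for the fibre list (86085 CPM). It was highest for the fibroblast list (2850.3 CPM against 1413 to 2825 CPM) and the macrophage list (139 CPM against 71.1 to 128 CPM). For the adipocyte list it was lowest (1100.0 CPM against 1420.0 to 1918 CPM), unlike in BL6. The brown adipocyte list (Ucp1, Cidea, Cox8b and Elovl3, 3 of 4 markers found) summed to 499 to 704 CPM in unoperated and 909 to 1348 CPM in operated BL6. In MRL it summed to 650 to 800 CPM without and 754 to 1164 CPM with surgery, and sample 4 was the lowest operated sample in both strains. In unoperated samples these sums lay above those of the adipocyte list (212 to 375 CPM), and whether they come from brown adipocytes was not tested. Levels of the single markers are not given here, so a sum may rest on 1 of them, such as Cox8b. It cannot be read as a level of brown adipocytes. The endothelial list (4 of 4 found) summed to 252 to 351 CPM without and 497 to 630 CPM with surgery in BL6, where sample 4 was highest. In MRL it summed to 191 to 263 CPM without and 268 CPM in operated sample 4, against 521 to 626 CPM in the other operated samples. The part of these differences in the result was not tested. Without both samples all 6 mRNAs were called in each strain, with a median log2 fold change of 0.71 in BL6 and 0.93 in MRL, while 66.3% and 58.8% of all genes were called in that fit; the samples were chosen by their low levels, so the larger values follow from the choice and are given only as a description. Without MRL operated sample 1, in contrast, 0 of 6 were called in MRL, beside 34.1% of all genes. Leaving out any other MRL sample except operated sample 4 left 3 of 6. Over all fits that each left out 1 sample, 3490 to 6145 genes were called for surgery in MRL. Without BL6 operated sample 1 the BL6 count was 1 of 6 (mt-Co1), beside 64.6% of all genes.

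**Figure D2:**
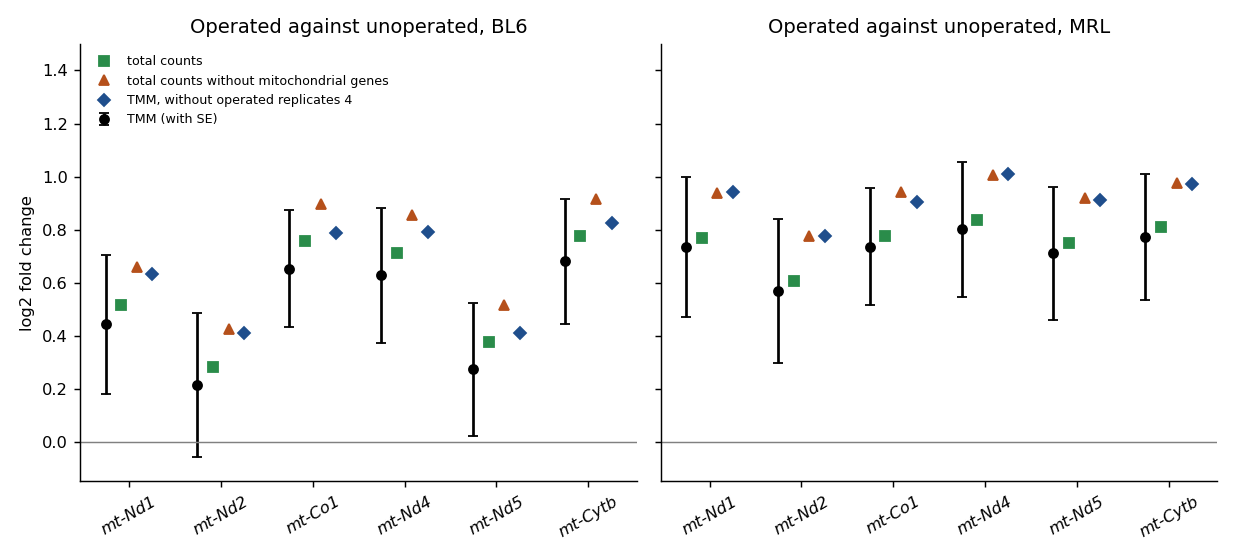
Log2 fold change of operated against unoperated samples for the 6 mRNAs in BL6 (left) and MRL (right), under TMM scaling (black, with SE), with total counts as library size (squares), with total counts less the mitochondrially encoded genes (triangles) and under TMM without both operated samples numbered 4 (diamonds). All values shown are above 0, and mt-Nd2 is the lowest of the 6 in MRL under every scaling shown.

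The scale on which such abundant genes are read matters for their size. With plain total counts as library size the log2 fold changes were 0.28 (mt-Nd2) to 0.78 (mt-Cytb) in BL6 and 0.61 (mt-Nd2) to 0.84 (mt-Nd4) in MRL. Once the mitochondrially encoded genes were left out of the total, they were 0.42 (mt-Nd2) to 0.92 (mt-Cytb) in BL6 and 0.77 (mt-Nd2) to 1.0 (mt-Nd4) in MRL. Both scales called 4 of the 6 in BL6, with mt-Nd1 added, and all 6 in MRL. Of all genes, 63% were called in BL6 and 33.5% in MRL with total counts, and 66.3% and 41.9% without the mitochondrial genes. The 2 scales also shifted the median of all genes, from 0.04 under TMM to 0.18 with total counts and 0.31 without the mitochondrial genes in BL6, and from 0.01 to 0.06 and 0.20 in MRL. The share of all called genes that were higher moved with it, from 51.7% to 60.2% and 68.5% in BL6 and from 49.5% to 51.8% and 69.9% in MRL. Relative to these medians, the values for mt-Cytb in BL6 were 0.64 under TMM, 0.60 with total counts and 0.61 without the mitochondrial genes. Those for mt-Nd1 in BL6 were 0.40, 0.34 and 0.35, and those for mt-Nd2 in BL6 were 0.17, 0.10 and 0.11, so neither was larger relative to the median on the scales other than TMM. TMM factors computed without the mitochondrially encoded genes called the same number of the 6, 3 in BL6 and 5 in MRL. The share of all genes called with those factors is not given here. In the authors' deposited table the log2 fold changes of the 6 ran from 0.31 (mt-Nd2) to 0.75 (mt-Cytb) in BL6 and from 0.41 (mt-Nd2) to 0.69 (mt-Nd4) in MRL. At a false discovery rate under 0.05 the authors' deposited table holds the same 3 in BL6 (mt-Cytb, mt-Co1 and mt-Nd4), and 4 in MRL, where mt-Nd1 has a rate of 0.0641.

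The difference between the strains' responses was tested by the interaction of strain and surgery. The MRL response exceeded the BL6 response by 0.08 ± 0.31 for mt-Co1, 0.09 ± 0.33 for mt-Cytb, 0.17 ± 0.36 for mt-Nd4, 0.29 ± 0.37 for mt-Nd1, 0.36 ± 0.38 for mt-Nd2 and 0.44 ± 0.35 for mt-Nd5 (log2 scale, SE). In the authors' deposited table the response was smaller in MRL for mt-Co1 (0.618 against 0.745 in BL6), mt-Cytb (0.673 against 0.750) and mt-Nd4 (0.691 against 0.696). There it was larger in MRL for mt-Nd1 (0.605 against 0.516), mt-Nd2 (0.410 against 0.313) and mt-Nd5 (0.588 against 0.374). None of the 6 was called by edgeR's test (adjusted p = 0.528 to 0.906), 0 had an unadjusted p under 0.05, and DESeq2 called 0. Among all genes 0.248% were called, 29 of 11709. With these errors, neither equal responses nor an excess in MRL for mt-Nd5, mt-Nd2 and mt-Nd1 can be read from the data.

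Without surgery the 6 mRNAs were lower in MRL muscle, and on the TMM scale every unoperated MRL sample was below every unoperated BL6 sample for all 6. For comparison, 12.9% of all genes lay wholly lower in unoperated MRL in this way. The log2 difference was -0.67 ± 0.25 for mt-Nd5, -0.54 ± 0.27 for mt-Nd2, -0.38 ± 0.26 for mt-Nd1, -0.36 ± 0.24 for mt-Cytb, -0.31 ± 0.25 for mt-Nd4 and -0.22 ± 0.22 for mt-Co1. None was called by edgeR's test over all groups (adjusted p = 0.107 for mt-Nd5 and 0.243 to 0.595 for the others), while 10.4% of all genes were. At an unadjusted p under 0.05 in edgeR's test there was 1 (mt-Nd5), which DESeq2 called with an adjusted p of 0.0420. The share of all genes that DESeq2 called in this comparison is not given here. The edgeR fit over all groups shares 1 estimate of the spread with the operated groups, in which the SD of mt-Nd1, for example, was 11395 CPM in BL6, against 1086 CPM in unoperated BL6. Fitted on the unoperated groups alone, 5 of 6 were called, all but mt-Co1 (adjusted p = 0.00133 to 0.0169), beside 20.8% of all genes tested in that fit. With total counts as library size mt-Nd1 and mt-Co1 overlapped between the strains.

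Among operated samples the estimated strain differences were smaller. That narrowing is the same quantity as the interaction above, which was not called for any of these mRNAs, so it cannot be taken as established. The log2 differences of MRL from BL6 were -0.26 ± 0.24 for mt-Cytb, -0.24 ± 0.25 for mt-Nd5, -0.18 ± 0.27 for mt-Nd2, -0.14 ± 0.25 for mt-Nd4, -0.13 ± 0.22 for mt-Co1 and -0.09 ± 0.26 for mt-Nd1. None was called by edgeR's test (adjusted p = 0.511 to 0.860), 0 had an unadjusted p under 0.05 and DESeq2 called 0, while 12.9% of all genes were called. The sign for mt-Nd1 turned with total counts as library size (0.01).

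Per kilobase of gene length the 6 kept the same order in all 4 groups: mt-Cytb, mt-Nd1, mt-Co1, mt-Nd2, mt-Nd4 and mt-Nd5. In unoperated BL6 the levels were 32289 ± 1166, 27915 ± 1134, 21125 ± 988, 16194 ± 760, 10565 ± 673 and 6008 ± 933 CPM per kilobase (SD, n = 4), and no neighbours in this order overlapped over samples. In operated MRL they were 43102 ± 13803, 35723 ± 11779, 30249 ± 8670, 16554 ± 5415, 14849 ± 5033 and 6155 ± 2088 CPM per kilobase, where every pair of neighbours overlapped over samples. Within single samples, 15 of 16, with all 4 of operated MRL among them, had all 6 in this order, and the exception was BL6 operated sample 4, where mt-Co1 was above mt-Nd1. Genes with reads shared with nuclear copies, mt-Nd4 and mt-Co1, have the least certain place in it. The order does not follow the position of the genes on the chromosome.

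**Figure D3:**
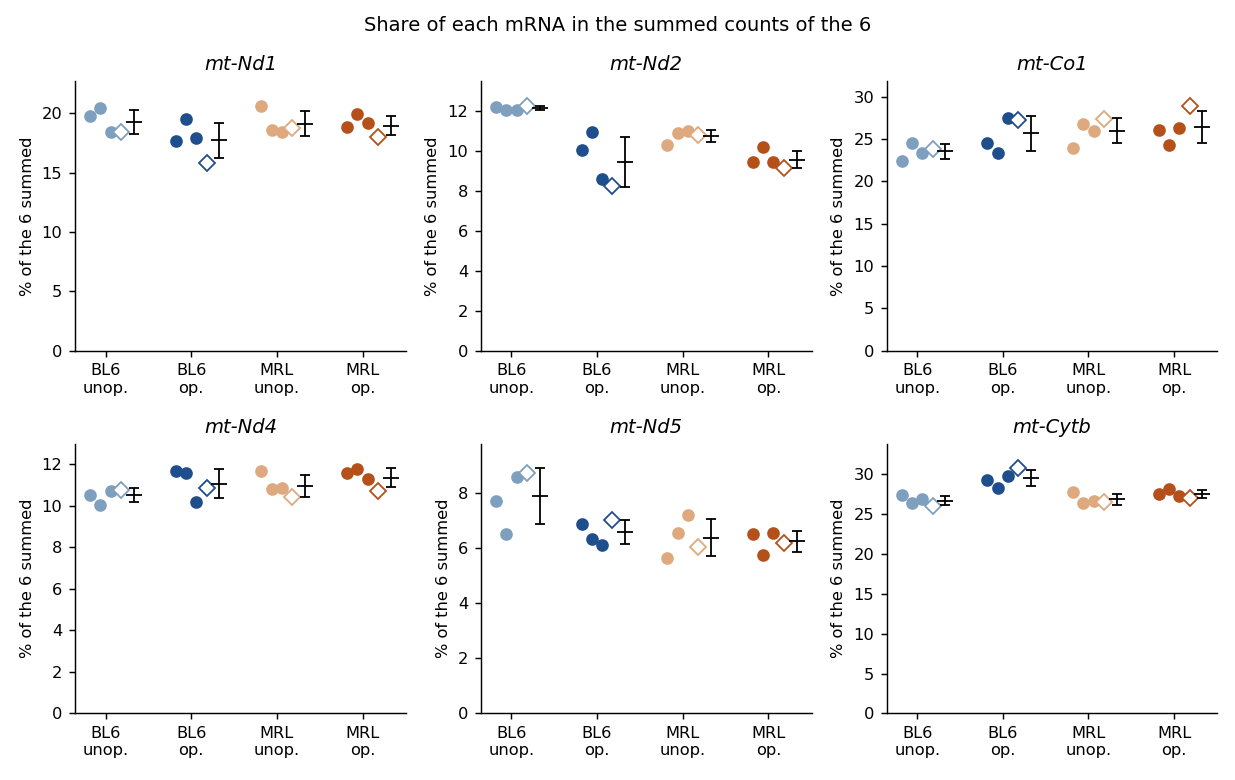
Share of each of the 6 mRNAs in their summed counts (percent), by sample and group. Points are samples, open diamonds are samples numbered 4, and bars are the mean with its SD (n = 4). The mt-Nd2 share is lower in all operated than in all unoperated samples of the same strain.

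The makeup of the 6 shifted with surgery, a measure that does not depend on library size. The share of mt-Nd2 in their sum was 12.0% to 12.3% in unoperated BL6 and 8.24% to 10.9% in operated BL6, and 10.3% to 11% against 9.13% to 10.2% in MRL. Neither strain's groups overlapped. mt-Cytb moved the other way in BL6, from 26.0% to 27.4% without surgery to 28.3% to 30.7% with it. In MRL its share overlapped between the groups, at 26.3% to 27.8% and 27.1% to 28.1%. The remaining 4 shares overlapped between operated and unoperated samples in both strains. Unoperated BL6 and MRL differed in the share of mt-Nd2 as well, 12.1% ± 0.111 against 10.7% ± 0.318 (SD, n = 4), without overlap. These shares were compared by description only, and a fall in one of them can arise from a rise in another.

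**Figure D4:**
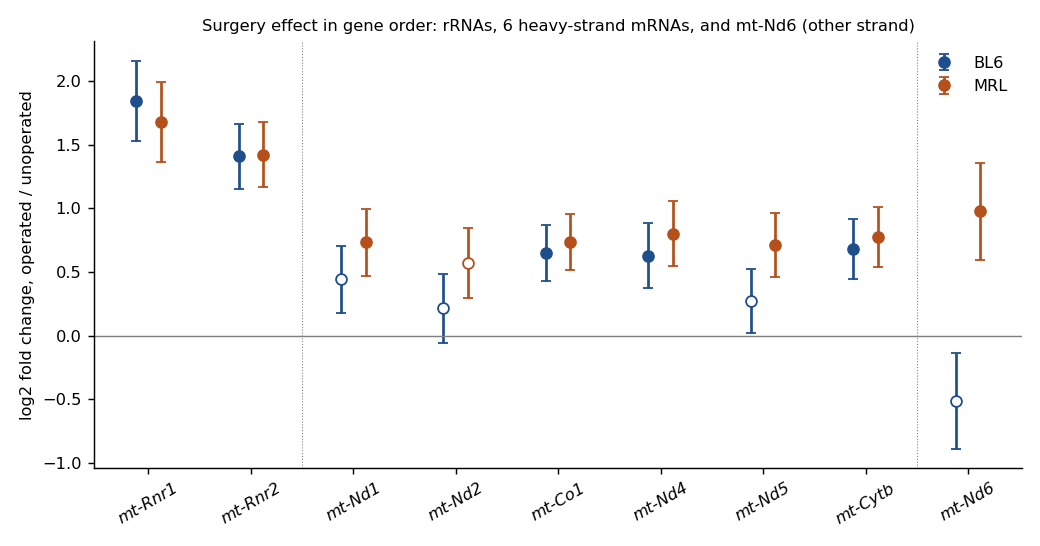
Log2 fold change (SE) after surgery in BL6 and MRL for the mitochondrial rRNAs, the 6 mRNAs in gene order, and mt-Nd6 on the other strand, set off by dotted lines. Filled points passed edgeR's test (adjusted p under 0.05); both rRNAs lie above all 6 mRNAs, and the mt-Nd6 value below 0 in BL6 rests on unoperated sample 1.

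The mitochondrial rRNAs, which lie first on the same strand, had larger changes than the 6 mRNAs. mt-Rnr1, the small-subunit rRNA at chrM:70-1024, held 860 to 1878 CPM in unoperated and 3554 to 5252 CPM in operated BL6, and 1096 to 1230.1 against 1601 to 4858 CPM in MRL. mt-Rnr2, the large-subunit rRNA at chrM:1094-2675, held 1686 to 2275 against 3762 to 6536 CPM in BL6 and 1597 to 1902 against 2201 to 6148 CPM in MRL. For both rRNAs the operated samples, sample 4 included, lay above the unoperated samples in each strain. By edgeR's test mt-Rnr1 rose by 1.84 ± 0.32 in BL6 (adjusted p = 0.000165) and by 1.68 ± 0.31 in MRL (adjusted p = 0.00167) on the log2 scale. mt-Rnr2 rose by 1.41 ± 0.26 (adjusted p = 0.000250) and by 1.42 ± 0.26 (adjusted p = 0.00136). The size of the change against that of the mRNAs was not tested. Their levels lie far under those of the mRNAs, and how rRNA was handled in library preparation is not given in the sources used here.

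mt-Nd6, the complex I subunit read from the other strand (chrM:13552-14070), was measured at 11.7 to 76.5 CPM, and is shown for its place beside the members. It held 76.5, 31.1, 23.2 and 31.0 CPM in unoperated and 46.1, 29.4, 23.3 and 14.9 CPM in operated BL6. In MRL it held 15.2, 19.4, 11.7 and 18.2 CPM without and 44.9, 33.4, 30.3 and 19.0 CPM with surgery. The high value is unoperated BL6 sample 1, and the BL6 groups overlap. By edgeR's test mt-Nd6 had a log2 fold change of -0.51 ± 0.38 in BL6 (adjusted p = 0.238) and rose by 0.98 ± 0.38 in MRL (adjusted p = 0.0475), and the interaction was not called (1.49 ± 0.54, adjusted p = 0.226). Without unoperated BL6 sample 1 the BL6 value was -0.0058 ± 0.32 (adjusted p = 0.988) in the same test. In MRL the adjusted p was 0.019 to 0.140 over edgeR fits that each left out 1 sample. Without surgery mt-Nd6 was lower in MRL by the same test (-1.32 ± 0.38, adjusted p = 0.0368), but not called without unoperated BL6 sample 1 (-0.82 ± 0.32, adjusted p = 0.126). mt-Nd6 lies between mt-Nd5 and mt-Cytb, so a plus-strand precursor that holds both crosses the whole of mt-Nd6. If strand was not used in counting, reads of such a precursor and of mt-Nd6 cannot be told apart.

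**Figure D5:**
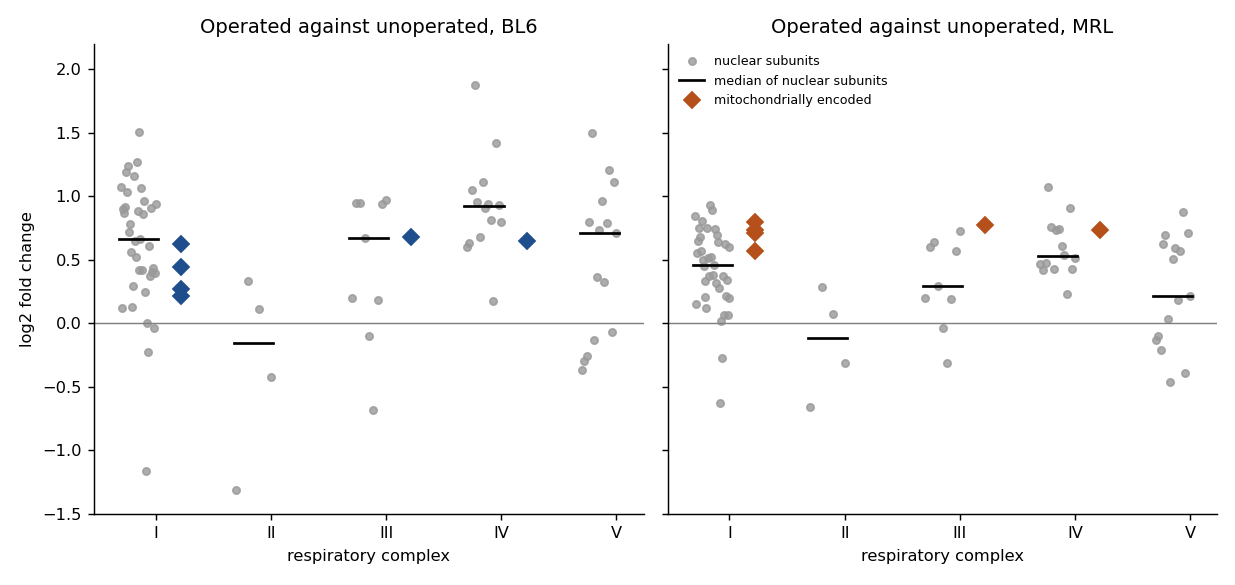
Log2 fold change after surgery in BL6 (left) and MRL (right) for nuclear subunits of complexes I to V (grey, with their median) and for the mitochondrially encoded subunits (coloured diamonds). In BL6 the 4 mitochondrial complex I mRNAs lie below the median of the nuclear complex I subunits, and in MRL they lie above it; complexes II and V have no mitochondrially encoded point.

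Nuclear subunits of the same complexes were read beside the 6, from a list of 81 genes of which 79 were tested. In BL6, 53 of 79 were called higher and 4 lower after surgery, with a median log2 fold change of 0.71, and in MRL 43 and 3, with a median of 0.46. Of nuclear complex I subunits, 26 of 37 were higher and 1 lower in BL6 (median 0.66), and 21 and 1 in MRL (median 0.46). The 4 mitochondrial complex I mRNAs had values of 0.21 to 0.63 in BL6 and 0.57 to 0.80 in MRL. Ndufb4, an accessory subunit of the membrane arm, rose most in BL6 (1.51 ± 0.27, adjusted p = 0.000213) and Ndufb2, of the same arm, in MRL (0.93 ± 0.27, adjusted p = 0.0119). Ndufs1, the iron-sulphur subunit of the arm that receives electrons, fell by 1.16 in BL6 (SE 0.23, adjusted p = 0.000429) and by 0.63 in MRL (SE 0.22, adjusted p = 0.0332), each by edgeR's test.

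For complex III, 5 of 9 nuclear subunits were higher and 1 lower in BL6 (median 0.67), and 4 and 0 in MRL (median 0.29), beside 0.68 and 0.77 for mt-Cytb. Uqcrq, a small subunit, rose by 0.97 ± 0.18 in BL6 (adjusted p = 0.000297) and by 0.72 ± 0.18 in MRL (adjusted p = 0.00623), while Uqcrc2, a core subunit, fell by 0.68 in BL6 (SE 0.18, adjusted p = 0.00330). For complex IV, 13 of 14 were higher and 0 lower in BL6 (median 0.92), and 11 and 0 in MRL (median 0.53), beside 0.65 and 0.73 for mt-Co1. Cox6a1, the form of subunit VIa made outside heart and skeletal muscle, rose by 1.88 ± 0.19 in BL6 (adjusted p = 8.92e-06) and by 1.08 ± 0.19 in MRL (adjusted p = 0.00116), from 20.6 to 75.6 CPM and from 28.1 to 59.2 CPM on average. These p-values are from edgeR's test.

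Complexes without an analysed mitochondrial gene did not move alike. Of 4 complex II subunits, all nuclear, 0 were higher and 2 lower in BL6 and 0 and 1 in MRL. Sdha, its catalytic flavoprotein, fell by 1.32 in BL6 (SE 0.22, adjusted p = 0.000148) and by 0.66 in MRL (SE 0.22, adjusted p = 0.0242) by edgeR's test. Of 15 complex V subunits tested, 9 were higher and 0 lower in BL6 (median 0.71), and 7 and 1 in MRL (median 0.22). Atp5e rose most in BL6 (1.5 ± 0.21, adjusted p = 4.29e-05) and Atp5k in MRL (0.88 ± 0.19, adjusted p = 0.00339), both small subunits, and Atp5g1, a gene for the membrane ring, fell by 0.46 in MRL (SE 0.15, adjusted p = 0.0242).

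The balance of mitochondrial to nuclear counts was read complex by complex, as the summed count of the mitochondrial genes over that of the nuclear subunits. For complex III it was 7.79 ± 0.554 in unoperated and 9.76 ± 1.04 in operated BL6 (SD, n = 4), without overlap, and 5.89 ± 0.396 and 8.24 ± 1.72 in MRL, with overlap through operated sample 4. For complex I the ratio was 6.66 ± 0.541 and 6.01 ± 1.0 in BL6 and 4.72 ± 0.415 and 5.79 ± 1.0 in MRL, and both pairs overlapped. For complex IV it was 4.90 ± 0.433 and 4.29 ± 0.396 in BL6 and 3.96 ± 0.612 and 4.39 ± 0.426 in MRL, again with overlap. Without surgery the ratio was lower in every MRL than in every BL6 sample for complexes I, III and IV. These ratios carry no test.

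Of nuclear genes whose products make, process or stabilise mitochondrial RNA, more were called lower than higher after surgery. On the list for mitochondrial transcription and replication of mitochondrial DNA, 1 of 16 was called higher and 8 lower in BL6 (median -0.33), and 0 and 5 in MRL (median -0.23). Mrpl12, a ribosomal protein that also binds the mitochondrial RNA polymerase, was the 1 that rose in BL6 (0.35 ± 0.14, adjusted p = 0.0446), and Mgme1, an exonuclease needed to maintain mitochondrial DNA, fell by 0.92 in BL6 (SE 0.23, adjusted p = 0.00240) and by 0.66 in MRL (SE 0.23, adjusted p = 0.0287) in edgeR's test. On the list for processing and stability of mitochondrial RNA, 2 of 21 were higher and 15 lower in BL6 (median -0.39), and 1 and 12 in MRL (median -0.33). That list holds a pair of proteins that bind mitochondrial mRNAs as a complex and keep them stable. Lrpprc fell by 1.01 in BL6 (SE 0.19, adjusted p = 0.000394) and by 0.59 in MRL (SE 0.19, adjusted p = 0.0224), whereas its partner Slirp rose by 0.94 ± 0.18 (adjusted p = 0.000336) and by 0.52 ± 0.18 (adjusted p = 0.0264), both by edgeR's test. Of 16 genes taken as a measure of mitochondrial content, 3 were higher and 5 lower in BL6 (median -0.04), and 0 and 5 in MRL (median -0.17). Vdac1, the main channel of the outer membrane, fell by 1.23 (SE 0.28, adjusted p = 0.00121) and by 0.97 (SE 0.27, adjusted p = 0.0113), and Slc25a5, an ATP and ADP carrier of the inner membrane, rose by 0.69 ± 0.16 in BL6 (adjusted p = 0.00159) by the same edgeR test. Over all genes tested, 4107 were higher and 3843 lower in BL6 and 2609 and 2663 in MRL.

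Across the 16 samples the 6 mRNAs moved closely together. On the log2 scale without the mitochondrial counts, each one centred on its own mean, their root mean square difference from the mean of the 6 was 0.08 (mt-Nd4) to 0.15 (mt-Nd5). Each of the 6 is part of that mean, which by itself makes its difference smaller. Genes outside the 6 are not part of it, so their values below are not on equal terms with these. The rRNAs and mt-Nd6 were farther off, at 0.68 for mt-Rnr1, 0.43 for mt-Rnr2 and 0.51 for mt-Nd6. Nuclear genes were ranked by the same measure, leaving out gene symbols that start with Gm or AC or end with Rik. Nuclear copies of mitochondrial DNA such as Gm13340 could therefore not appear, whatever their pattern. Among the genes ranked, the most similar was Flt1, a receptor for vascular endothelial growth factor, at 0.17. Plcb4, a phospholipase C, Crym, a thyroid hormone binding protein, and Mmaa, which serves mitochondrial vitamin B12 metabolism, followed, each at 0.19. Cebpzos and Pxmp2, a peroxisomal membrane protein, were both at 0.21. The measure covers all 16 samples, which share their library sizes, and it was taken over genes of at least 5 CPM on average.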

How the data were processed

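Messenger RNA of 16 muscle samples was measured by RNA sequencing. The authors deposited whole-number counts per gene, not normalized, as the values and the file headers show. They also deposited a table of log2 fold changes and average log2 CPM, with a p-value and false discovery rate per gene, per the file headers. FastQC, STAR, edgeR and the mm10 build (another name for GRCm38) are named in the submitters' processing notes, without versions; the counting program, its strand setting and its treatment of reads with several matches are not given in the sources used here. All else was computed from the deposited counts with R 4.3.3 and edgeR 4.0.16. TMM scaling and filterByExpr (minimum count 10) kept 11709 of 11710 genes, and 1 quasi-likelihood model with the 4 group means as terms, fitted over all samples, gave 5 comparisons. P-values were adjusted by Benjamini-Hochberg over all genes tested and called under 0.05. The fit was also run on simulated counts with a fixed spread and few changed genes, in BL6 operated samples only. That run does not show how the fit performs in a response as broad as the one seen here. Alternatives were DESeq2 1.42.0, other library sizes, no filter, fits of 2 groups, a replicate block and leaving out samples; leaving out both operated samples numbered 4 was chosen after seeing the data. Levels in CPM are descriptions without a test. Nuclear copies were found with BLAST 2.17.0 among GENCODE M21 transcripts, where 11708 of the gene IDs matched, and sequences are from that set. Named genes are all members, the mitochondrial rRNAs and mt-Nd6, per list and surgery comparison the called gene that rose most and the one that fell most, and the 6 genes most alike; mt-Ti and mt-Tm were picked with their values already seen. The members and gene lists were chosen with earlier results of these data known. Total counts of 24323862 to 43552964 put the limit of a count of 0 (3 counts) at 0.0689 to 0.123 CPM, for counting error only. No 2 samples of a group agreed within sampling noise.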

Additional observations from a re-analysis of the deposited data

Results flagged for a closer look

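Of 80 group-wise tests for a sample far from the others, 1 found one, and chance alone marks about 1 in 20 groups. In unoperated MRL, mt-Cytb took 2.84% of total counts in sample 3, while the other 3 samples lay between 2.97% and 2.98%. The gap is wide only against a very narrow spread of those 3, and the value is still below every unoperated BL6 sample.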

How the results depend on the processing

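The 6 mRNAs kept a positive surgery effect in both strains under every alternative run. Calls were less stable. Over fits that each left out 1 sample, the number of the 6 called ranged from 1 to 4 in BL6 and from 0 to 6 in MRL, and from 0 to 1 for the strain difference without surgery. Over all genes those fits called 7189 to 8177 in BL6, 3490.0 to 6145 in MRL, 1 to 69 for the interaction, 821 to 1572 for strain without and 1030.0 to 1842 for strain with surgery. Leaving out both operated samples numbered 4 (chosen after seeing the data) called 6 of the 6 in BL6, 4 for strain without surgery, 58 genes for the interaction and 2190.0 for strain without surgery. The cause was not tested, except that fits of fewer samples estimate the spread from other samples.

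For the interaction, DESeq2 called 250.0 genes, total counts as library size 14 and the replicate block 2, against 29. For strain without surgery, DESeq2 called 1 of the 6 mRNAs and a fit of those 2 groups called 5 of them and 2438 genes, against 0 and 1216; for strain with surgery a fit of 2 groups called 575 genes against 1507. The share of calls that were higher in MRL went from 48.4% to 70.3% with total counts and 64.9% without the mitochondrial genes for strain without surgery, and from 59.1% to 72.2% and 70.8% with surgery; for the interaction it went from 62.1% to 75% without the mitochondrial genes. The sign for mt-Nd1 between operated strains turned to 0.0117 with total counts and 0.00791 without the mitochondrial genes. Leave-one-out ranges crossed 0 for strain with surgery in mt-Nd1 (-0.28 to 0.12), mt-Nd2 (-0.38 to 0.0212), mt-Nd4 (-0.31 to 0.0686) and mt-Co1 (-0.29 to 0.0306), and for the interaction in mt-Co1 (-0.0751 to 0.25) and mt-Cytb (-0.0653 to 0.29).

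The samples share only a number: deviations of same-numbered samples correlated between -0.474 and 0.452. With that number as a block, 2 of the 6 were called in BL6, where mt-Nd4 reached an adjusted p of 0.0509, and 4 in MRL, where mt-Nd5 reached 0.0507 (edgeR). The share of all genes called for surgery in that fit is not given here, so these counts cannot be set against it. In BL6 surgery 0 of 4 samples correlated best with their own number, in MRL 2 of 4. The limit that a count of 0 allows, 0.0689 to 0.123 CPM, lies far below the levels of the 6.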

Other observations

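Of the 4 mitochondrial tRNA genes in the count table, mt-Ti (isoleucine), which starts within the last 2 bases of mt-Nd1, differed between the strains in the opposite direction to the 6 mRNAs; it was chosen after its values were seen. It held 4.76 to 6.66 CPM in unoperated BL6, 6.28 to 19.98 CPM in operated BL6, 9.87 to 18.0 CPM in unoperated MRL and 16.5 to 56.9 CPM in operated MRL. By edgeR's test it was higher in MRL by 1.17 ± 0.35 (log2, adjusted p = 0.0444) without and by 1.66 ± 0.35 (adjusted p = 0.00486) with surgery, and it rose after surgery by 1.13 ± 0.35 in BL6 (adjusted p = 0.0106) and by 1.61 ± 0.35 in MRL (adjusted p = 0.00317). The gene is shown whole, with the bases it shares with mt-Nd1 in capitals; whether reads over it were counted once or for both genes is not given in the sources used here.
mt-Ti, chrM:3706-3774, plus strand: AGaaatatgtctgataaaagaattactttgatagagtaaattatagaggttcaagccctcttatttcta

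mt-Tm (methionine), between mt-Ti and mt-Nd2, rose by 0.77 ± 0.32 in BL6 (adjusted p = 0.0432) and by 1.12 ± 0.33 in MRL (adjusted p = 0.0131), by edgeR's test. mt-Tl1 and mt-Tw were not called in either strain. Of 3 nuclear copies found in the count table, Gm13340, 97.6% identical to mt-Co1, held 13.6 ± 0.407 CPM in unoperated and 24.1 ± 4.81 CPM in operated BL6 (SD, n = 4), and 11.9 ± 1.55 and 21.8 ± 6.52 CPM in MRL. By edgeR's test it rose in BL6 (0.82 ± 0.19, adjusted p = 0.00174) and in MRL (0.87 ± 0.19, adjusted p = 0.00362). Gm13341, 95.9% identical to mt-Co2, had 0.41 ± 0.22 in BL6 (adjusted p = 0.115) and rose by 0.95 ± 0.23 in MRL (adjusted p = 0.00511). Gm11407, 92.3% identical to part of mt-Nd5, was not called by edgeR's test in BL6 (0.29, adjusted p = 0.384) or in MRL (0.68, adjusted p = 0.070).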
